A study of Mus musculus with 6 samples.

Results

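The genes described here are 33 genes of glucose uptake, glycolysis, lactate handling and the transcriptional response to low oxygen, taken by gene symbol from a table of 24062 symbols. They hold 24 genes of glucose handling and 9 hypoxia response genes. RNA-seq libraries were made from both heart ventricles of male mice of strain C57/Bl6N on postnatal day 1. The 3 control libraries came from mice without Cre recombinase (CreNEG) and the 3 Med12cKO libraries from mice that carried Cre (CrePOS), in which the Mediator subunit gene Med12 was deleted in the heart. The sources used here do not give the promoter that drove Cre, the other alleles of the controls or any pooling of animals, and no group carried Cre with intact Med12, so Cre itself and the deletion cannot be told apart. Since whole ventricles were used, fewer cells of a type and less RNA per cell cannot be told apart either.

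Glycolysis splits glucose into pyruvate in the cytosol, and pyruvate is either reduced to lactate or oxidised in mitochondria. Several steps are served by paralogous genes, of which one is enriched in striated muscle (such as Pfkm, Pgam2 and Eno3) and another is expressed in most tissues (such as Pfkl, Pgam1 and Eno1). The aldolases fit this division poorly, since Aldoa is widely expressed and Aldoc is enriched in brain. Lactate dehydrogenase fits it poorly too, since its genes divide into a heart form (Ldhb) and a form favoured in glycolytic tissue (Ldha). Around birth the heart relies strongly on glycolysis and then turns to fatty acid oxidation. In low oxygen, hypoxia-inducible factors escape hydroxylation by the Egln enzymes and raise the transcription of glycolytic genes and of genes such as Vegfa.

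Library totals ran from 8453346 to 10911698 counts, and 13629 genes passed the low-count filter. The targeted gene Med12 had 103, 176 and 113 CPM in the controls against 61.6, 85 and 41.3 CPM in the Med12cKO ventricles (CPM, counts relative to the library total after TMM scaling). All 3 Med12cKO libraries lay below the controls. The log2 fold change of Med12 was −1.06 (SE 0.30; edgeR unadjusted p = 0.0097, adjusted p = 0.765), so edgeR did not call the targeted gene itself. DESeq2 called it (adjusted p = 0.024) and limma-voom did not (adjusted p = 0.576). Heart muscle markers were present, with all 10 listed genes detected. Their summed level was 44722 to 57996 CPM in control and 35049.7 to 45341 CPM in Med12cKO. Control replicate 3 and Med12cKO replicate 1 stood apart by 11 T-cell and thymus genes, which summed to 808 and 815 CPM there and to between 3.43 and 5.52 CPM in the other 4 libraries. The 13 skeletal muscle markers summed to 2179 to 2849 CPM in control and 1954 to 3126 CPM in Med12cKO, with replicate 3 highest. Without Ckm, which heart muscle expresses too, the remaining 12 summed to 523 CPM in Med12cKO replicate 1 and to between 119 and 188 CPM elsewhere. All 4 globin genes listed were at 0 counts in all 6 libraries.

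None of the 32 members tested passed the test between Med12cKO and control at an adjusted p under 0.05 (edgeR quasi-likelihood test, Benjamini-Hochberg over all genes), against 0.022% of all genes tested. DESeq2 and limma-voom called 0 members as well. At an unadjusted p under 0.05, 3 members were higher (Pgam1, Slc16a3 and Pfkp) and 3 lower (Vegfa, Egln3 and Slc2a1). Among all genes tested, 2.16% were higher and 1.61% lower at that level. By limma-voom the same 6 members were at an unadjusted p under 0.05. By DESeq2 4 were higher and 2 lower, with Pfkl added and Slc2a1 lost. The groups did not overlap in 3 members that lay higher and 4 that lay lower in Med12cKO, where the shares over all genes tested were 4.59% and 3.64%. The seventh of these members was Ndrg1. The lower count at an unadjusted p was 1 without control replicate 1 or 2 or Med12cKO replicate 1 or 2, and 5 without Med12cKO replicate 3. In that last setting 619 of all 13629 genes tested were lower, against 220 with all libraries. Without control replicate 3 and Med12cKO replicate 1, the libraries with thymus transcripts, 0 members were higher and 1 lower. Of all 13539 genes tested there, 141 were higher and 176 lower. The sample descriptions open with the letter I or J, whose meaning is not given. In the 4 libraries with the letter I, 2 of each group, 5 members were higher and 1 lower, where 286 and 285 of all 13594 genes tested were. Over the members tested the median log2 fold change was −0.03, and over all genes tested 0.01.

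**Figure D1:**
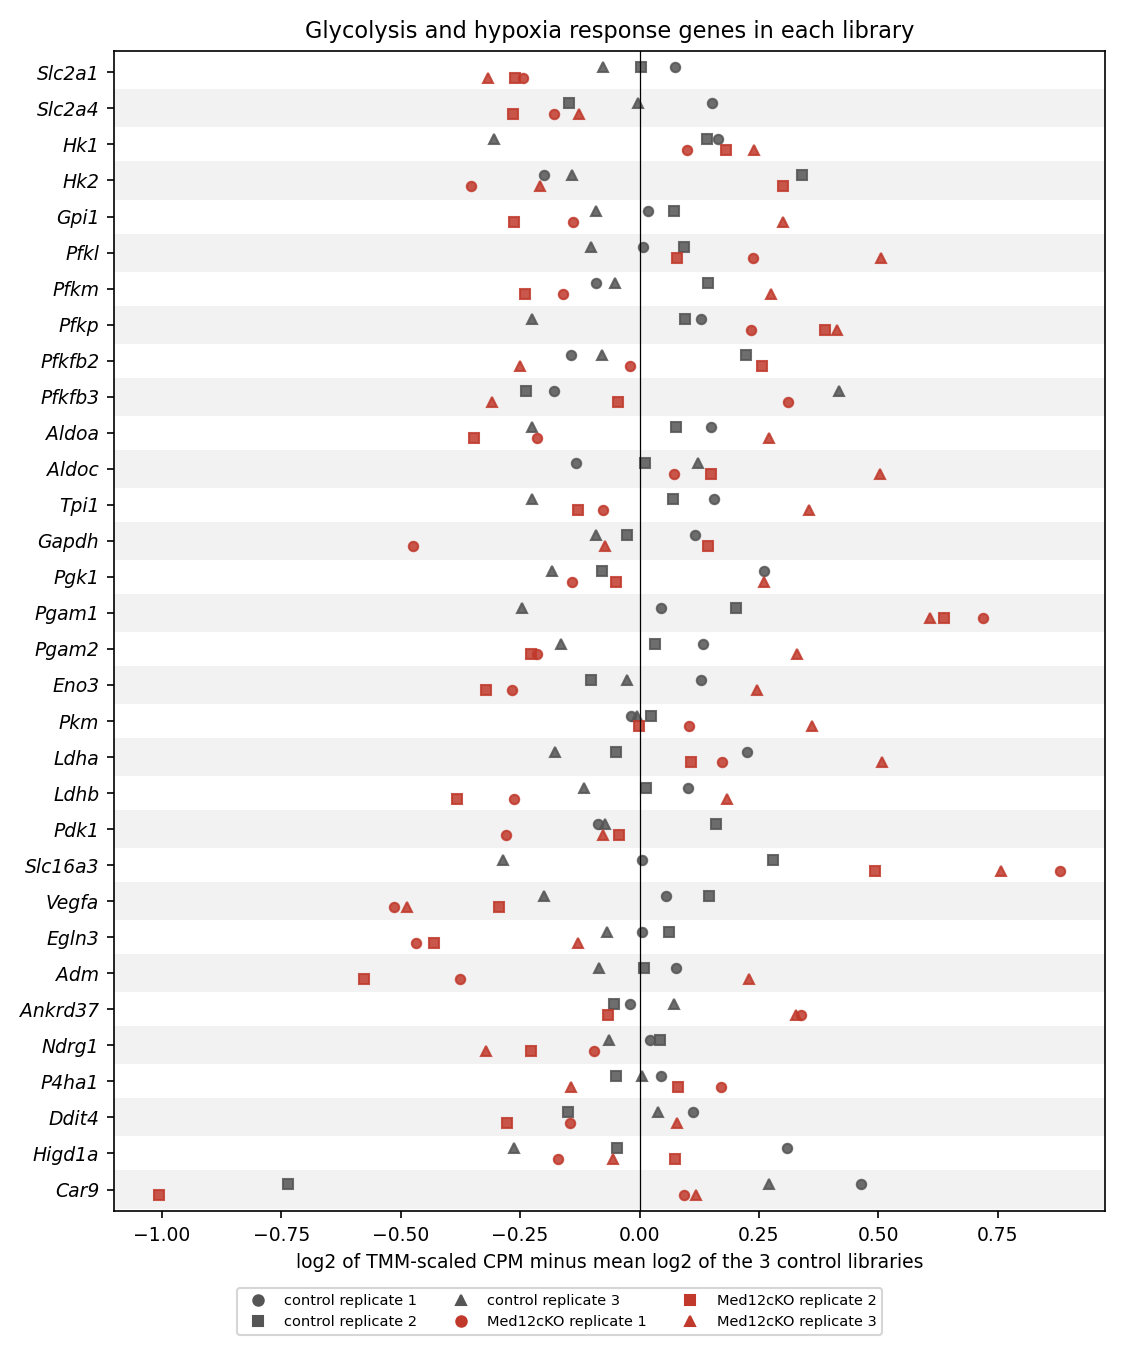
TMM-scaled CPM of the 32 members tested in each of the 6 libraries, as log2 minus the mean log2 of the 3 control libraries; grey symbols are control, red symbols Med12cKO, and the symbol shape gives the replicate number. The red symbols lie all to the right of the grey ones for Pfkp, Pgam1 and Slc16a3 and all to the left for Slc2a1, Vegfa, Egln3 and Ndrg1.

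Several glycolytic genes have near-identical copies elsewhere in the genome, and some of the best-known enzymes had few or no counts in the table. Eno1, the ubiquitous enolase, was listed at 0 counts in 5 libraries and at 1 count in Med12cKO replicate 2, and it was the one member that did not pass the low-count filter. Gapdh, which encodes the dehydrogenase that yields NADH in glycolysis, was listed at 96, 105 and 100 counts in control and 65, 114 and 90 counts in Med12cKO. To see what such reads could match, the longest coding transcript of each member was cut into words of 50 bases, and the share of words found exactly in a gene at another locus of GENCODE M21 was computed. That share was 82.5% for Gapdh, with 222 other genes, 213 of them annotated as pseudogenes. It was 72.2% for Eno1, 68% for Pgk1, 41.5% for Pgam1, 30.5% for Pkm, 27% for Ldhb, 19.6% for Gpi1, 16.6% for Ldha, 13.5% for Aldoa and 7.51% for both Tpi1 and Higd1a. In the 22 members with a share under 1%, among them Pfkm, Pfkl, Pfkp, Pgam2, Eno3, Slc16a3, Vegfa and Egln3, such copies were rare or not found. The sources used here do not give the read length or the treatment of reads that match several loci. The levels of Gapdh, Eno1, Pgk1 and Pgam1 are uncertain for this reason, and the part of shared words in their low counts was not tested. Eno1b, the copy that shares 70.5% of the words of Eno1, was counted at 247, 359 and 368 counts in control and 235, 273 and 286 counts in Med12cKO.

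**Figure D2:**
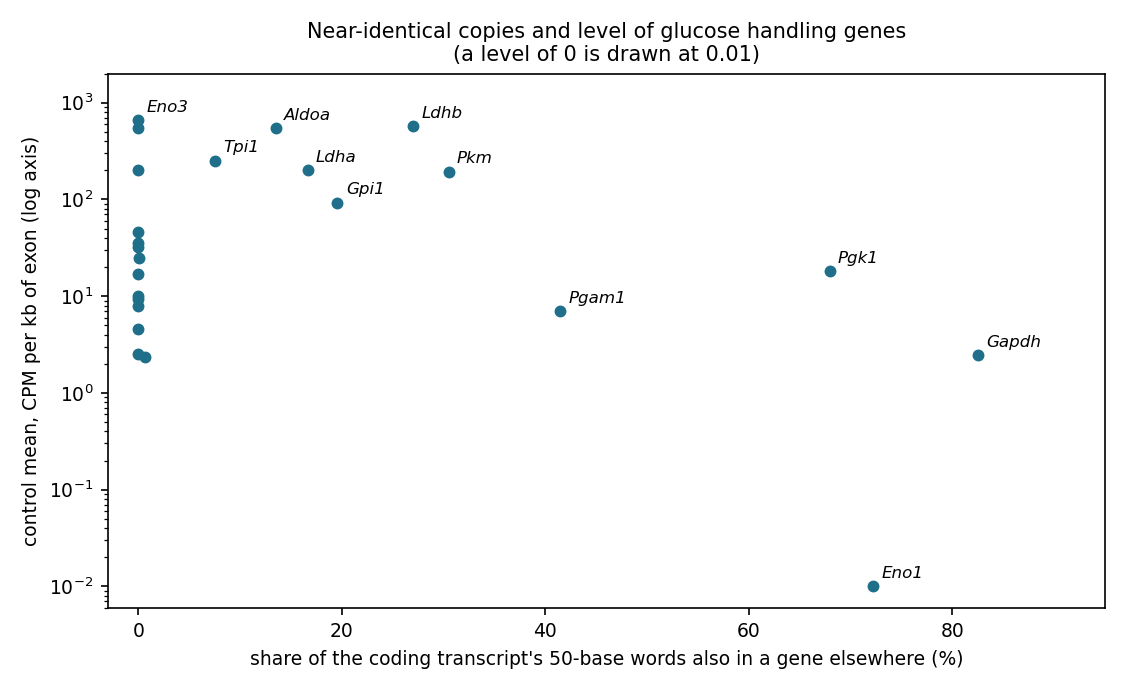
Share of 50-base words of the coding transcript that also occur in a gene at another locus (horizontal axis, percent) against the control mean level per kb of exon (vertical axis, log scale) for the 24 genes of glucose handling. The 4 genes with the largest shares (Gapdh, Eno1, Pgk1 and Pgam1) all lie under 20 CPM per kb, and Eno1, whose level is 0, is drawn at 0.01. Genes with a share under 1% lie there too, among them Slc2a1 at 9.99 and Pfkp at 9.28 CPM per kb. The length is that of all annotated exons of a gene together, and the level depends on that choice. For Pfkp it is 13401 bases against 4145 in the longest coding transcript, and for Pgk1 2244 against 1825. Ldhb, with a share of 27%, lies at 570 and Pkm, with 30.5%, at 193 CPM per kb.

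Glucose enters the cell through Slc2a1 (GLUT1), the transporter of most fetal tissues, and through Slc2a4 (GLUT4), the insulin-responsive transporter of muscle and fat. Slc2a1 (chromosome 4, 119108711 to 119137983, plus strand) stood at 36.8, 35.1 and 33.2 CPM in the 3 controls and at 29.5, 29.2 and 28.1 CPM in the 3 Med12cKO libraries. Its Med12cKO values all lay under the lowest control. The log2 fold change was −0.27 (SE 0.12), at an unadjusted p of 0.041 and an adjusted p of 0.9999 in edgeR. Slc2a4 had 135, 109.9 and 121 CPM in the controls against 108, 101 and 111 CPM with Med12 deleted, with overlapping groups and a log2 fold change of −0.19 (SE 0.12). Neither transporter passed the test. Per kb of exon the control level was 35.1 ± 3.62 CPM for Slc2a4 and 9.99 ± 0.519 CPM for Slc2a1 (SD, n = 3).

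Hexokinase traps glucose as its phosphate. Hk1, the form of most tissues, was found at 433, 426 and 313 CPM in control ventricles and at 414, 438 and 456 CPM in Med12cKO ventricles. Control replicate 3 was the lowest of the 6 libraries. The form of adult muscle, Hk2, measured 86.7, 126 and 90.2 CPM in the controls and 77.9, 123 and 86.1 CPM in Med12cKO, where replicate 2 was the highest library in both groups. Per kb of exon Hk1 exceeded Hk2 in every library, with a ratio of Hk2 to Hk1 between 0.269 and 0.423. Among the steps compared by isoform, hexokinase was the one in which the ubiquitous gene was the more abundant per kb.

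Phosphofructokinase commits sugar phosphate to glycolysis, and its muscle, liver and platelet subunits are encoded by Pfkm, Pfkl and Pfkp. Pfkp (chromosome 13, 6579768 to 6648777, minus strand) stood at 135, 132 and 106 CPM in the 3 controls and at 145, 162 and 165 CPM in the 3 Med12cKO libraries. The Med12cKO libraries all lay above the controls, at a log2 fold change of 0.34 (SE 0.13; edgeR unadjusted p = 0.028, adjusted p = 0.9999). Pfkl (chromosome 10, 77986947 to 78010083, minus strand) had 166, 176 and 154 CPM in the controls against 195, 174 and 234 CPM with Med12 deleted. Its groups overlapped only between control replicate 2 and Med12cKO replicate 2, and the log2 fold change was 0.28 (SE 0.14; edgeR unadjusted p = 0.067). Pfkm (chromosome 15, 98092589 to 98132451, plus strand), the most abundant of the 3 per kb, was found at 625, 735 and 643 CPM in control ventricles and at 596, 565 and 806 CPM in Med12cKO ventricles. Med12cKO replicate 3 was the highest of the 6 libraries and replicates 1 and 2 were the lowest, which left a log2 fold change of −0.03 (SE 0.17). Of the exon bases of Pfkm, 10.2% are shared with another gene model on the same strand, as are 17.4% of those of Pfkfb2 and 15.3% of those of Pkm.

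The bifunctional enzymes that set the level of fructose 2,6-bisphosphate, the activator of phosphofructokinase, had group means closer than their SD. The heart form Pfkfb2 stood at 51.6, 66.5 and 53.9 CPM in the 3 controls and at 56.2, 68.1 and 47.9 CPM in the 3 Med12cKO libraries, with 0.0010 as log2 fold change (SE 0.16). The inducible form Pfkfb3 measured 15.2, 14.6 and 23 CPM in the controls and 21.3, 16.7 and 13.9 CPM in Med12cKO, with −0.03 as log2 fold change (SE 0.23). In both genes the groups overlapped.

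Aldolase splits the 6-carbon sugar. Aldoa, the form of muscle and of many other tissues, had 1743, 1656 and 1343 CPM in the controls against 1354, 1235 and 1894 CPM with Med12 deleted. Aldoc, the brain-enriched form, measured 13.7, 15.1 and 16.4 CPM in the controls and 15.8, 16.7 and 21.3 CPM in Med12cKO, with the highest value in Med12cKO replicate 3. The log2 fold changes were −0.08 (SE 0.19) for Aldoa and 0.25 (SE 0.18) for Aldoc, and the groups overlapped in both. Gpi1 and Tpi1, enzymes of the upper pathway with no listed partner, had group means closer than their SD. Gpi1, which interconverts glucose and fructose phosphates, was found at 595 ± 34.2 CPM in control ventricles and at 589 ± 126 CPM in Med12cKO ventricles, and the triose phosphate isomerase Tpi1 measured 691 ± 92.6 and 719 ± 138 CPM (SD, n = 3).

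Among the lower pathway enzymes tested Pgam1 alone had groups that did not overlap. It encodes a phosphoglycerate mutase, which moves the phosphate from carbon 3 to carbon 2 of glycerate. Pgam1, the ubiquitous form (chromosome 19, 41911923 to 41918660, plus strand), stood at 14.3, 15.9 and 11.7 CPM in the 3 controls and at 22.8, 21.5 and 21.1 CPM in the 3 Med12cKO libraries. Each Med12cKO library lay above each control, and the Med12cKO mean was 1.56 times the control mean. The log2 fold change was 0.64 (SE 0.17; edgeR unadjusted p = 0.0036, adjusted p = 0.524). Over 17 alternative settings it stayed between 0.49 and 0.75, and 0 of them called it. Pgam2, the muscle form (chromosome 11, 5801640 to 5803733, minus strand), had 497, 464 and 405 CPM in the controls against 391, 388 and 570.1 CPM with Med12 deleted. Here the groups overlapped, with Med12cKO replicate 3 highest and replicates 1 and 2 lowest. The log2 fold change was −0.02 (SE 0.18). Because 41.5% of the words of Pgam1 also lie in 4 pseudogenes, its counts are uncertain, while no word of Pgam2 was found elsewhere.

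Eno3, the muscle enolase, was found at 1253, 1069 and 1126 CPM in control ventricles and at 953, 918 and 1360.5 CPM in Med12cKO ventricles, with −0.09 as log2 fold change (SE 0.18). As in Pgam2, Med12cKO replicate 3 was the highest library and the other 2 Med12cKO libraries were the lowest. With Eno1 listed at 0, no ratio of the enolase isoforms was computed. Pkm, which makes pyruvate, stood at 955, 983 and 964 CPM in the 3 controls and at 1039, 966 and 1242 CPM in the 3 Med12cKO libraries, with 0.16 as log2 fold change (SE 0.14). Its muscle and ubiquitous products arise by splicing from this same gene, so that counts per gene do not separate them. Pgk1 had 40.9 ± 6.79 CPM in the controls against 41.5 ± 6.22 CPM with Med12 deleted, and Gapdh 10.2 ± 0.762 and 9.42 ± 1.97 CPM (SD, n = 3).

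Lactate dehydrogenase is a tetramer of the subunits encoded by Ldha, the form favoured in glycolytic tissue, and Ldhb, the heart form. Ldha (chromosome 7, 46841475 to 46855627, plus strand) was found at 766, 634 and 579.5 CPM in control ventricles and at 739, 706 and 931 CPM in Med12cKO ventricles. Ldhb (chromosome 6, 142490249 to 142507957, minus strand) stood at 959, 902 and 824 CPM in the 3 controls and at 745, 686 and 1014 CPM in the 3 Med12cKO libraries. Each gene overlapped between the groups, with log2 fold changes of 0.26 (SE 0.16) and −0.14 (SE 0.17). Slc16a3 (MCT4; chromosome 11, 120948480 to 120960868, plus strand), the lactate exporter of glycolytic cells and a known target of hypoxia-inducible factor, had 13.2, 16 and 10.8 CPM in the controls against 24.2, 18.6 and 22.3 CPM with Med12 deleted. It had the largest positive log2 fold change of the members tested, 0.70 (SE 0.19; edgeR unadjusted p = 0.0053, adjusted p = 0.585), and the groups did not overlap. Its values lay between 10.8 and 24.2 CPM, and it had no word in common with a gene elsewhere. Pdk1, the kinase that holds pyruvate back from mitochondrial oxidation, was found at 233, 277 and 235 CPM in control ventricles and at 204, 240.3 and 235 CPM in Med12cKO ventricles, with −0.13 as log2 fold change (SE 0.13) and overlapping groups.

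The isoform classes were then set side by side. In the class called muscle-enriched here were 8 genes (Slc2a4, Hk2, Pfkm, Pfkfb2, Aldoa, Pgam2, Eno3 and Ldhb). Of these 8 genes 7 had a negative log2 fold change, with a median of −0.08 and values from −0.19 to 0.0010. An unadjusted p under 0.05 in edgeR was found for 0 of them. Their 8 partners tested were Slc2a1, Hk1, Pfkl, Pfkp, Pfkfb3, Aldoc, Pgam1 and Ldha. They are called ubiquitous here, although Aldoc is brain-enriched and Ldha is the form favoured in glycolytic tissue. Of these partners 6 had a positive log2 fold change, with a median of 0.26 and values from −0.27 to 0.64. Ldhb was placed in the muscle-enriched class as the heart form and Ldha among the partners, so this pair enters both medians. Medians without Ldhb and Ldha were not computed. Without Aldoa and Aldoc the medians were −0.08 over 7 genes and 0.26 over 7. With library totals as the only scaling the medians were −0.05 and 0.28, and 5 of 8 and 1 of 8 genes were negative. In the letter I libraries 5 of the 8 muscle-enriched genes were positive, with a median of 0.04, and the ubiquitous median was 0.32. Without the libraries with thymus transcripts the medians were −0.03 and 0.24, and without Med12cKO replicate 3 −0.23 and 0.13. With DESeq2's size factors they were −0.08 and 0.26. The transporter Slc2a1 went against the other ubiquitous genes in sign, as did Pfkfb3.

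**Figure D3:**
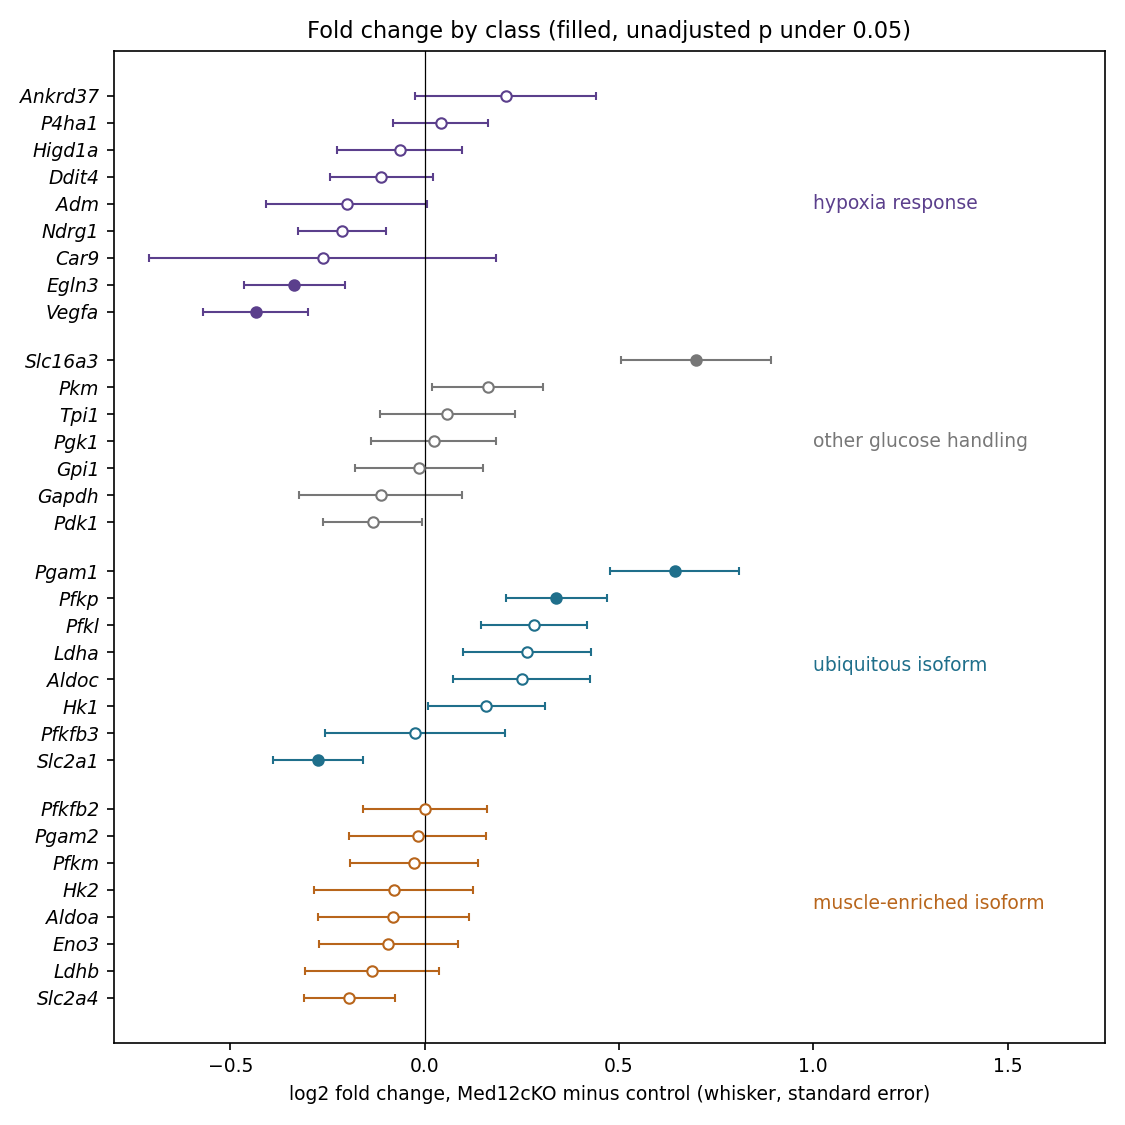
Log2 fold change of Med12cKO minus control with its standard error for the 32 members tested, by class; filled points have an unadjusted p under 0.05 and none passed the adjusted threshold. The muscle-enriched genes lie between −0.19 and 0.0010, while 6 of 8 ubiquitous genes lie above 0 and 7 of 9 hypoxia response genes below 0.

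The ratio of a muscle-enriched gene to its ubiquitous partner within a library does not depend on how libraries are scaled, and it was compared for 8 pairs. The difference of the mean log2 ratio was negative in 6 pairs, and in 3 of them each Med12cKO library lay below each control library. Among these 3 is Ldhb to Ldha, a pair that fits the division into muscle-enriched and ubiquitous genes poorly. With 3 against 3 libraries an exact two-sided permutation test over 20 arrangements cannot give a p under 0.10, and no pair could pass. Any pair with separated groups reaches that p of 0.10. The share of separated ratios among other gene pairs was not computed, and the 8 pairs were chosen with earlier results of these data known.

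Ldhb to Ldha per kb of exon was 2.64, 3.0 and 3.0 in the control libraries and 2.13, 2.05 and 2.3 in the Med12cKO libraries. The 2 groups were separated although neither gene was on its own, and the heart form was the more abundant per kb in all 6 libraries. The log2 ratio differed by −0.42 (SE 0.08; exact permutation p = 0.10, adjusted p = 0.267 over the 8 pairs). Pfkm to Pfkl per kb was 7.52, 8.34 and 8.35 in control and 6.12, 6.47 and 6.87 in Med12cKO. Again all Med12cKO values lay below all control values, with a difference of −0.32 in the log2 ratio (SE 0.07; exact permutation p = 0.10, adjusted p = 0.267). Under 0.1% of the words of either gene occur elsewhere, while Ldha and Ldhb both have copies, as given above. Pgam2 to Pgam1 per kb was 82.2, 68.8 and 81.8 in control and 40.5, 42.5 and 63.8 in Med12cKO. This was the largest difference of the pairs compared, −0.69 in the log2 ratio (SE 0.22; exact permutation p = 0.10, adjusted p = 0.267), with the uncertainty of the Pgam1 counts given above.

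In the remaining 5 pairs the groups overlapped. The log2 ratio of Pfkm to Pfkp was 2.21, 2.48 and 2.6 in control and 2.04, 1.8 and 2.29 in Med12cKO, a difference of −0.39 (SE 0.18; exact permutation p = 0.20). Aldoa to Aldoc differed by −0.34 (SE 0.20; exact permutation p = 0.30), and Hk2 to Hk1 by −0.26 (SE 0.26; exact permutation p = 0.20). With a library left out, Aldoa to Aldoc ran from −0.51 (without control replicate 3) to −0.20 (without control replicate 1). Hk2 to Hk1 was −0.44 and −0.45 without control replicate 1 or Med12cKO replicate 2, and −0.18 to −0.16 without any 1 of the other 4. Slc2a4 to Slc2a1 differed by 0.08 (SE 0.09; exact permutation p = 0.60; 0.0089 without control replicate 2, 0.03 without Med12cKO replicate 3 and 0.13 without Med12cKO replicate 2) and Pfkfb2 to Pfkfb3 by 0.01 (SE 0.33; exact permutation p = 0.90), the latter turning negative without control replicate 3 or Med12cKO replicate 2 or 3. Adjusted over the 8 pairs, p lay between 0.32 and 0.9 for these 5. The pairs are not independent, since Pfkm enters 2 of them and all come from the same 6 libraries.

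**Figure D4:**
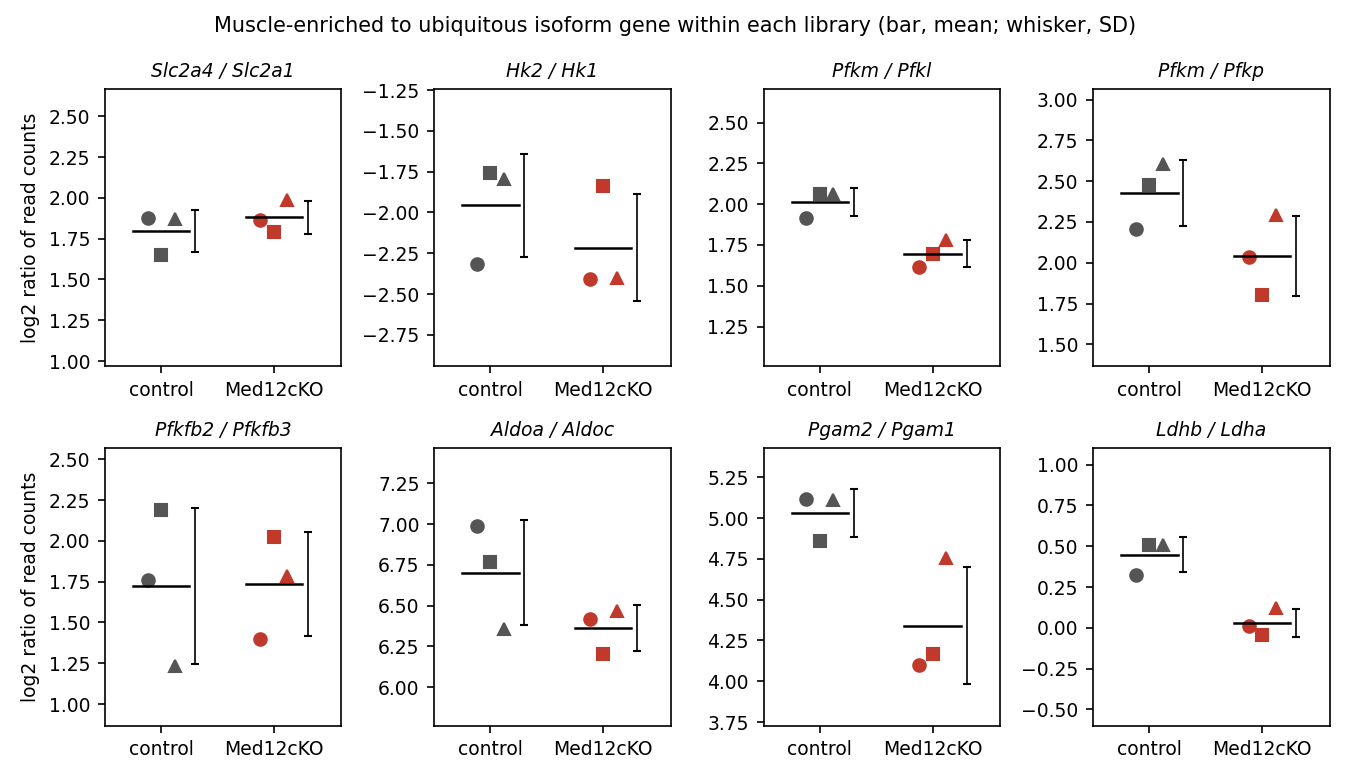
Log2 ratio of read counts of the gene classed as muscle-enriched to the gene classed as ubiquitous within each library for 8 pairs. Ldhb/Ldha is the heart form over the form favoured in glycolytic tissue. Control is in grey and Med12cKO in red, with the symbol shape giving the replicate number, the bar the mean and the whisker the SD of 3 libraries. Every panel spans the same range of log2 units. Ldhb/Ldha, Pfkm/Pfkl and Pgam2/Pgam1 show no overlap between the groups, and the other 5 panels do.

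Cell composition was read beside these ratios. The 10 heart muscle markers summed to 56205, 57996 and 44722 CPM in control replicates 1 to 3 and to 35049.7, 42369 and 45341 CPM in Med12cKO replicates 1 to 3, and 3 of the 10 had an unadjusted p under 0.05, all lower, where 1.61% of all genes tested were. The 6 fibroblast markers summed to 7414 to 8504 CPM in control and 6306 to 9968 CPM in Med12cKO, and the 6 endothelial markers to 1251 to 1412 and 1174 to 1389 CPM. Skeletal muscle markers are given above, highest in Med12cKO replicate 3 with Ckm and in Med12cKO replicate 1 without it. The part of cell composition in the isoform ratios was not tested. Without control replicate 3 and Med12cKO replicate 1, the libraries with thymus transcripts, the log2 ratio still differed by −0.38 for Ldhb to Ldha, −0.25 for Pfkm to Pfkl and −0.53 for Pgam2 to Pgam1.

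The glycolytic enzymes varied between libraries within each group. Of the 17 enzymes tested from hexokinase to lactate dehydrogenase, Med12cKO replicate 3 was the highest of all 6 libraries in 13, control replicate 3 was the lowest in 7 and Med12cKO replicate 2 in 6. The median log2 ratio of these enzymes to the control mean was −0.14, −0.0020 and 0.30 in Med12cKO replicates 1 to 3 and 0.12, 0.07 and −0.14 in control replicates 1 to 3, while over all genes tested it lay between −0.02 and 0.0026 in every library. After each library's trend with exon length and GC content was removed, Med12cKO replicate 3 was the highest in 9 of 17, with a median log2 ratio of 0.22, and control replicate 3 was the lowest in 9. On the log2 scale the SD over the Med12cKO libraries was above the difference of the group means in 11 of the 17, and above the SD over the controls in 13.

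Promoters of the 3 separated pairs are shown to set the ubiquitous and the muscle-enriched gene beside each other, followed by those of Slc16a3, which lay higher, and of Vegfa and Egln3, hypoxia response genes that lay lower at an unadjusted p under 0.05. Each sequence is the RefSeq window (GRCm38.p6) from 250 bases before to 50 bases after a transcription start, 5′ to 3′ on the strand of the gene, with matches to the core of the hypoxia response element in capitals. The cores searched were ACGTG and GCGTG on both strands, and matches on opposite strands may overlap, as in CACGTG. The windows lie at chr7:46845554-46845853 (plus strand) for Ldha, chr6:142507908-142508207 (minus strand) for Ldhb, chr10:78009758-78010057 (minus strand) for Pfkl, chr15:98092339-98092638 (plus strand) for Pfkm, chr19:41911621-41911920 (plus strand) for Pgam1, chr11:5803747-5804046 (minus strand) for Pgam2, chr11:120948817-120949116 (plus strand) for Slc16a3, chr17:46032328-46032627 (minus strand) for Vegfa and chr12:54203825-54204124 (minus strand) for Egln3. Where the table has several starts (2 for Ldha, 4 for Pfkm and 2 for Vegfa), the window nearest to the annotated start of the gene is shown.
Ldha: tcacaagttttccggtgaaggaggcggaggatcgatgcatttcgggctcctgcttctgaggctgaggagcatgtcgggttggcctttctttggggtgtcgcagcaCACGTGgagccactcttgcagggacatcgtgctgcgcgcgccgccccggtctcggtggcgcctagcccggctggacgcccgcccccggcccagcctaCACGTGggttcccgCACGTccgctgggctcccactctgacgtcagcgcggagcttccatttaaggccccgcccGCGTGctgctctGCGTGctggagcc
Ldhb: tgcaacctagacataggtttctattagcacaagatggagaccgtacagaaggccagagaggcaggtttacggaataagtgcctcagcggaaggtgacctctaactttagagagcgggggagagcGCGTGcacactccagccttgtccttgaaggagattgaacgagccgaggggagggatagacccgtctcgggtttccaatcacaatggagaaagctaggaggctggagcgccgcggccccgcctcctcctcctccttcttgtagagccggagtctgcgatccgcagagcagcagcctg
Pfkl: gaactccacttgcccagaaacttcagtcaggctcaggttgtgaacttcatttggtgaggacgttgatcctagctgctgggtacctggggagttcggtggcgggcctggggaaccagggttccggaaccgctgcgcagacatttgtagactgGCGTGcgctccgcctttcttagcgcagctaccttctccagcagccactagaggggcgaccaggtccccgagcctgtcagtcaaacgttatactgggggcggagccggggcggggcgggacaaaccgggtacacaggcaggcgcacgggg
Pfkm: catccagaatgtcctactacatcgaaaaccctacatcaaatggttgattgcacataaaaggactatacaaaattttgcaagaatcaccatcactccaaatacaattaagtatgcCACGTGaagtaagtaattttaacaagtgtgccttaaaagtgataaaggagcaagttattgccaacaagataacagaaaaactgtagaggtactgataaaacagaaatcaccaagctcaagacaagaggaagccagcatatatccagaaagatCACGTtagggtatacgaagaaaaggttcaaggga
Pgam1: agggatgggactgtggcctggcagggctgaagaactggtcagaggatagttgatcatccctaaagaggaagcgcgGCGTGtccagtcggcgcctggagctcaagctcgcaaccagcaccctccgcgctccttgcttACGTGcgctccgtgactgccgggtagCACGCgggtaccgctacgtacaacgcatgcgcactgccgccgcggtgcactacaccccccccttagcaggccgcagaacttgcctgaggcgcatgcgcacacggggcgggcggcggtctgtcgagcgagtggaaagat
Pgam2: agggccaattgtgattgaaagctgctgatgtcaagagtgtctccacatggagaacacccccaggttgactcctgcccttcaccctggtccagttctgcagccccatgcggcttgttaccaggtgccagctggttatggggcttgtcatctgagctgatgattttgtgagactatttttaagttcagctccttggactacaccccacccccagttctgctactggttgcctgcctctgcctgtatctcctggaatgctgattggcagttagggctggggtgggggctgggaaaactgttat
Slc16a3: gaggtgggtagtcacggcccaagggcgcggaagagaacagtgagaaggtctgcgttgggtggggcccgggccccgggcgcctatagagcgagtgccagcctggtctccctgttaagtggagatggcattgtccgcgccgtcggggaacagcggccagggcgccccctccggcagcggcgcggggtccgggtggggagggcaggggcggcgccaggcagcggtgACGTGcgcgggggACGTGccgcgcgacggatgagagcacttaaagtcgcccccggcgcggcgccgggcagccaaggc
Vegfa: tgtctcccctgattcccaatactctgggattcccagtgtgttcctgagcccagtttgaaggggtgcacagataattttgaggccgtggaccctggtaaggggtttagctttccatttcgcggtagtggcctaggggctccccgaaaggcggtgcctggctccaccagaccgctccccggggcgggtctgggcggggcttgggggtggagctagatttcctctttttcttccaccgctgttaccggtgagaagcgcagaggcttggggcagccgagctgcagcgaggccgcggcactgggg
Egln3: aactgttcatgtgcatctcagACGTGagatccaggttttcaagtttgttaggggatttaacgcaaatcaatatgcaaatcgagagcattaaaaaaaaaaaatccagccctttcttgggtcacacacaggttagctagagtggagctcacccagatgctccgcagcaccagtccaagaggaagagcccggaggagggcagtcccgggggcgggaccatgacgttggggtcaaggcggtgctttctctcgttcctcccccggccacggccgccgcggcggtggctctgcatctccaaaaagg

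In the windows shown there were 7 matches in Ldha against 1 in Ldhb and 3 in Pgam1 against 0 in Pgam2, but 1 in Pfkl against 3 in Pfkm, so that neither class held more throughout. The window at the second start of Ldha held 2, and those at the other starts of Pfkm held 2, 1 and 0. Slc16a3 held 2, Egln3 held 1 and Vegfa 0, with 2 at its other start. Over the 31 members with an entry, 38 of 47 windows (80.9%) held at least 1 match, and 43.8% of all 32851 windows in the table did. For ACGTG alone the shares were 53.2% and 19.6%, and for GCGTG 57.4% and 32.4%. The members were listed as glycolysis and hypoxia response genes, so a higher share may come with the choice of list. The windows were not matched for base composition, and the difference in shares was not tested. A match describes the letters of the window and not a bound site, and members with matches lay both above and below control. Slc2a4 and Ndrg1 had no entry.

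Among the 9 hypoxia response genes, 7 had a negative log2 fold change, with a median of −0.20. The median was −0.17 with library totals only, −0.17 without the libraries with thymus transcripts and 0.03 in the letter I libraries, where 6 of the 9 were positive. At an unadjusted p under 0.05, 2 of the 9 were lower and 0 higher, against 1.61% and 2.16% of all genes tested. In 3 the groups did not overlap, all lower, against 3.64% of all genes tested. Vegfa (chromosome 17, 46016993 to 46032369, minus strand), the angiogenic growth factor that hypoxic heart muscle secretes, stood at 366, 389 and 306 CPM in the 3 controls and at 247, 287 and 251 CPM in the 3 Med12cKO libraries. All 3 Med12cKO libraries lay below the controls, at 74% of the control mean. The log2 fold change was −0.43 (SE 0.13; edgeR unadjusted p = 0.01, adjusted p = 0.776), against an adjusted p of 0.161 by DESeq2. Egln3 (chromosome 12, 54178981 to 54203860, minus strand), a prolyl hydroxylase that is itself induced by the factors it inactivates, had 57.7, 59.9 and 54.8 CPM in the controls against 41.5, 42.6 and 52.5 CPM with Med12 deleted. Here too the groups did not overlap, with Med12cKO replicate 3 nearest to control, and the log2 fold change was −0.34 (SE 0.13; edgeR unadjusted p = 0.028, adjusted p = 0.9999). Ndrg1, a stress-responsive gene induced by hypoxia (chromosome 15, 66929318 to 66969640, minus strand), was found at 61.6, 62.5 and 58.1 CPM in control ventricles and at 56.8, 51.8 and 48.5 CPM in Med12cKO ventricles. Its groups were separated by a narrow gap, with a log2 fold change of −0.21 (SE 0.11; edgeR unadjusted p = 0.095).

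The other 6 hypoxia response genes overlapped between the groups. Adm, the vasodilator adrenomedullin, stood at 25.4, 24.3 and 22.8 CPM in the 3 controls and at 18.6, 16.2 and 28.3 CPM in the 3 Med12cKO libraries, with Med12cKO replicate 3 the highest library and replicates 1 and 2 the lowest. Ddit4, an inhibitor of mTORC1 signalling, had 75.1 ± 6.91 CPM in the controls against 69.5 ± 8.81 CPM with Med12 deleted (SD, n = 3). P4ha1, which hydroxylates collagen prolines, measured 49 ± 1.59 and 50.4 ± 5.53 CPM, and Higd1a, a mitochondrial inner membrane protein gene, 40.0 ± 8.15 and 38.2 ± 3.24 CPM. In these 3 genes the group means differed by less than the larger SD. Ankrd37 measured 4.55 ± 0.207 and 5.27 ± 0.80 CPM, and the carbonic anhydrase Car9, which is strongly induced in hypoxic tumours, was near the detection limit at 2.19, 0.953 and 1.91 CPM in control and 1.69, 0.789 and 1.72 CPM in Med12cKO. Of the exon bases 26.4% in Ankrd37, 22.5% in Higd1a, 11.5% in Gpi1, 9.29% in Car9 and 8.43% in Ndrg1 overlap a gene of the other strand. Some other members have lower shares. Since no source used here says whether strand was counted, the reads of such genes may be mixed.

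Upstream of these genes lie oxygen sensors and the factors they control. Of 11 regulators of the hypoxia-inducible factors 0 had an unadjusted p under 0.05 in edgeR and 0 passed over all genes. Hif1a, the inducible factor itself, was found at 184 ± 7.47 CPM in control ventricles and at 199 ± 42.2 CPM in Med12cKO ventricles (SD, n = 3), and Epas1, its endothelial-enriched relative, 209 ± 14 and 185 ± 15.8 CPM. The ubiquitin ligase subunit gene Vhl measured 43.3 ± 1.46 and 42.1 ± 1.98 CPM. Hif3a, a relative that can antagonise the others, had the most negative log2 fold change of the 11, −0.51 (SE 0.26; edgeR unadjusted p = 0.086). Of 33 further hypoxia-responsive genes tested 2 were higher and 1 lower at an unadjusted p under 0.05, where all genes tested gave 2.16% and 1.61%, and 0 passed over all genes. These 3 are named by the rule for pathway genes and passed no test. The cell cycle inhibitor gene Cdkn1a had a log2 fold change of 0.53 (SE 0.17), the mitochondrial adenylate kinase gene Ak4 0.37 (SE 0.14) and Narf −0.26 (SE 0.11). Over these 33 the median was −0.01.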

How the data were processed

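The deposited table holds raw read counts per gene symbol, made by the authors and not normalized, 1 column per library, matched to samples by the description label. Per the submitters' processing notes, the tools were TopHat2 2.0.0, featureCounts and edgeR 3.14.0 on GRCm38 (mm10). Annotation, strand setting and the treatment of multi-mapping reads are not given in the sources used here. Groups came from the titles. No label ties a library to 1 animal, and the p-values then reflect only how these libraries vary, which may be technical.

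Counts were tested with edgeR 4.0.16's quasi-likelihood F test (robust, TMM; filterByExpr at 10 counts, total 15) in R 4.3.3, with Benjamini-Hochberg adjustment over 13629 genes at 0.05. On simulated data of 13510 genes for this comparison it found 60% of those set to change 2-fold, 16% at 1.5-fold, and made 10 false calls. For a gene, SE is the log2 fold change over the square root of F. For an isoform ratio, SE is the square root of the summed group variances of the log2 ratio, each divided by 3, with no F statistic. Isoform ratios used log2 of counts plus 0.5. Alternatives were DESeq2 1.42.0, limma-voom (limma 3.58.1), other scalings and filters, replicate and letter terms and left-out libraries. A length and GC correction and class medians without the aldolases were added after the data were seen. Between replicates of a group, chi-square per degree of freedom was 15.3 to 31.0, so none were duplicates. A count of 0 allows 3 counts, 0.286 to 0.345 CPM here, for counting error only. Lengths and positions are from GENCODE M21 (GRCm38). Levels per kb use the length of all annotated exons of a gene together, which can exceed that of a single transcript.

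Members, pairs and lists were chosen with earlier results of these data known. Members at an unadjusted p under 0.05, with separated groups or in a pair were named with every library's value, and the rest by mean and SD. Of other pathway genes, up to 10 at an unadjusted p under 0.05 were named, and Hif1a, Epas1, Vhl and Hif3a were chosen after their values were seen.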

Additional observations from a re-analysis of the deposited data

How the results depend on the processing

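None of the 17 alternative settings called a member over all genes tested (lowest adjusted p 0.161, for Vegfa in DESeq2), and the log2 fold changes of Slc2a1, Pfkp, Pgam1, Slc16a3, Vegfa, Egln3 and Ndrg1 kept their sign in all 17. Of the 25 other members tested 17 changed sign in at least 1 setting. Genes called over all genes tested were 3 as reported, 61 with DESeq2, 1 in the letter I libraries only and 1 to 3 with a library left out, the 1 without Med12cKO replicate 3. Members at an unadjusted p under 0.05 were 5 higher and 1 lower in the letter I libraries only, 0 higher and 1 lower without control replicate 3 and Med12cKO replicate 1, and 2 to 3 higher and 1 to 5 lower with a library left out. The count over all genes tested moved too, from 220 lower with all libraries to 619 lower without Med12cKO replicate 3. Other pathway genes at that level, 8 as reported, were 13 with the length and GC correction and 5 without control replicate 3 and Med12cKO replicate 1. With a library left out they were 4 (without control replicate 2) to 14 (without Med12cKO replicate 3). The totals over all genes tested moved in the same direction. They were 515 as reported, 706 with the length and GC correction, 317 without control replicate 3 and Med12cKO replicate 1 and 1035 without Med12cKO replicate 3. The cause was not tested. The log2 ratio of Pfkfb2 to Pfkfb3 turned negative in the letter I libraries only (−0.12) and without control replicate 3 and Med12cKO replicate 1 (−0.07), and ran from −0.24 to 0.24 with a library left out. The other 7 ratios kept their direction in all alternatives run, among them −0.48 to −0.38 for Ldhb to Ldha, −0.37 to −0.27 for Pfkm to Pfkl and −0.90 to −0.57 for Pgam2 to Pgam1 with a library left out. With the length and GC correction these 3 were −0.43, −0.33 and −0.68.

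No label says that the replicate numbers pair animals. Deviations from the group means correlated at −0.29, 0.53 and −0.31 across 10705 genes for numbers 1, 2 and 3, and only the libraries numbered 2 correlated best with their own number. These values cannot decide on pairing, since deviations within a group sum to 0 and so depend on each other. The highest correlation was 0.75, between control replicate 3 and Med12cKO replicate 1, which share thymus transcripts, and control replicate 1 with Med12cKO replicate 3 gave 0.39. With the replicate block 2 genes were called over all genes, 0 members among them, and 3 members were higher and 2 lower at an unadjusted p under 0.05. The paired differences in log2 ratio were −0.42 for Ldhb to Ldha, −0.32 for Pfkm to Pfkl and −0.69 for Pgam2 to Pgam1, each at an exact sign-flip p of 0.25, the smallest that 3 pairs allow. Among the members Eno1, Car9, Ankrd37 and Gapdh had the lowest levels, and what limited them was not tested.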

Other observations

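Genes at the branches of glycolysis showed a few differences of the same order, and 0 passed edgeR over all genes tested. Of 20 genes of pyruvate and lactate handling 2 were higher and 1 lower at an unadjusted p under 0.05, where all genes tested gave 2.16% and 1.61%. Pdk3, a kinase that inhibits pyruvate dehydrogenase, stood at 62.4, 52.4 and 57.2 CPM in the 3 controls and at 80.2, 76.5 and 91.3 CPM in the 3 Med12cKO libraries (log2 fold change 0.53, SE 0.12; edgeR adjusted p = 0.424). Pdk4, the kinase of that family induced in fasting, had 457, 614 and 464 CPM in the controls against 390.4, 316 and 396 CPM with Med12 deleted (log2 fold change −0.48, SE 0.16; edgeR adjusted p = 0.913). The groups did not overlap in either gene, which lay on opposite sides of control. Slc16a1 (MCT1), the lactate carrier of oxidative tissue, was found at 214, 195 and 178 CPM in control ventricles and at 240.4, 268 and 233 CPM in Med12cKO ventricles (log2 fold change 0.34, SE 0.12; edgeR adjusted p = 0.9999), which put it on the same side as Slc16a3.

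Of 24 genes of glycogen and the pentose phosphate pathway 1 was higher and 0 lower at an unadjusted p under 0.05, beside the same 2.16% and 1.61% of all genes. It was Phkg1, the muscle catalytic subunit of phosphorylase kinase, which stood at 15.9, 17.3 and 17.3 CPM in the 3 controls and at 25.4, 29.2 and 23.9 CPM in the 3 Med12cKO libraries (log2 fold change 0.63, SE 0.15; edgeR adjusted p = 0.424). Among 12 further genes of glycolysis and glycerol phosphate tested, Gpd1 alone was at an unadjusted p under 0.05, and it was higher. It encodes the cytosolic glycerol 3-phosphate dehydrogenase and had 18.2, 17.3 and 21.9 CPM in the controls against 36.5, 38 and 22.1 CPM with Med12 deleted (log2 fold change 0.75, SE 0.21; edgeR adjusted p = 0.65), where Med12cKO replicate 3 lay close to control replicate 3.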
